A study of Mus musculus with 12 samples.

Results

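The genes described here are the catalytic subunits of the proteasome that interferon gamma (IFNγ) induces, *Psmb8*, *Psmb9* and *Psmb10*, their constitutive counterparts *Psmb5*, *Psmb6* and *Psmb7*, the 3 genes of the 11S activator, *Psme1*, *Psme2* and *Psme3*, and the assembly factor *Pomp*. They were taken by symbol from the deposited expression table, in which all 10 were found among 23022 listed genes. The table covers B16-F10 cells, a mouse melanoma line, in 12 RNA-seq libraries of 4 conditions with 3 replicates each. All cells carried Cas9 and came from a single Cas9 clone. Control cells received a non-targeting guide construct (NTC, which the labels write as No template control), and DKO cells received guides against both *Mbnl1* and *Mbnl2*, 2 genes of the Muscleblind-like RNA-binding proteins. Each genotype was left untreated or treated with IFNγ. The DKO population was polyclonal and not every allele was edited, and RNA of the targeted genes was still measured: *Mbnl1* stood at 56.5 ± 0.756 TPM (SD, n = 3) in untreated NTC cells and at 42.1 ± 1.65 TPM in untreated DKO cells, and *Mbnl2* at 103 ± 4.12 and 89.1 ± 1.68 TPM.

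The proteasome is a barrel of stacked rings closed around catalytic beta subunits, which cut proteins into peptides, some of which are loaded on MHC class I molecules. *Psmb5* encodes the subunit with chymotrypsin-like activity, *Psmb6* the caspase-like one and *Psmb7* the trypsin-like one. IFNγ, a cytokine of T cells and natural killer cells, is known to induce *Psmb8*, *Psmb9* and *Psmb10*, whose products take the places of PSMB5, PSMB6 and PSMB7 in newly built particles, called immunoproteasomes. *Psme1* and *Psme2* encode the subunits of the IFNγ-inducible PA28 cap that opens the barrel, *Psme3* encodes a related nuclear cap that is not known as an IFNγ target, and *Pomp* encodes the chaperone that matures the barrel. The question here is how far the RNA of the induced genes moved against that of their counterparts, and whether this differed between NTC and DKO cells.

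Values are in TPM, the usual share of a transcript in its library scaled for transcript length, so that genes can be compared within a library. TPM keep no read depth, and the precision given below is the spread between replicates. Nothing in the labels says that replicates were separate cultures, so p-values measure only the spread between these samples, which may be technical. Melanocyte markers were expressed in every library (7 of 7), while *Ptprc*, *Cd3e* and *Cd8a* of the leukocyte list were listed at 0 throughout and that list summed to at most 1.85 TPM. The fibroblast list summed to at most 2.22 TPM and the endothelial list to at most 0.914 TPM.

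By position (GRCm38, GENCODE M21), *Psmb9* (chr17:34181987-34187764, minus strand) and *Psmb8* (chr17:34197721-34201454, plus strand) flank *Tap1*, a subunit of the peptide transporter, while *Psmb10* lies apart (chr8:105935735-105938444, minus strand). *Psme1* (chr14:55578123-55581529, plus strand) and *Psme2* (chr14:55587441-55591113, minus strand) are 5911 bases apart. The constitutive genes *Psmb5* (chr14:54614119-54618022, minus strand), *Psmb6* (chr11:70525367-70527858, plus strand) and *Psmb7* (chr2:38588036-38644087, minus strand) are scattered, as are *Psme3* (chr11:101316213-101323537, plus strand) and *Pomp* (chr5:147860461-147876456, plus strand). The first exons of *Psmb9* and *Tap1* overlap on opposite strands over 212 bases. The libraries were unstranded, so reads from that stretch, from the 405 exonic bases that *Psmb7* shares with *Nek6* and from the 498 that *Psmb8* shares with *Gm20496*, both on the other strand, cannot be assigned by strand.

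Promoter windows of 6 of these genes are shown because they set the induced genes beside constitutive ones. Each runs from 250 bases before to 50 bases after a RefSeq transcription start (GRCm38.p6), 5′ to 3′ on the strand of the gene, and 9 of the 10 genes had a window. Capitals mark matches, on either strand, to any of 5 motifs: GAAANNGAAA (a repeat bound by interferon-regulatory factors), TTCNNNGAA (a palindrome known from IFNγ-responsive promoters), TGACNNNGC (the core of the antioxidant response element), GGGCGG (the GC box) and CCAAT.
Psmb8: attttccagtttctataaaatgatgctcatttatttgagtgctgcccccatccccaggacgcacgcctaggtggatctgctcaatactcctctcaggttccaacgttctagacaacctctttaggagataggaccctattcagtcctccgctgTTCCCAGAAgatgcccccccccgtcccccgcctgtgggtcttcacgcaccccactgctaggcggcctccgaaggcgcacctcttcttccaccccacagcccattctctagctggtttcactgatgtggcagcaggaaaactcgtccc
Psmb9: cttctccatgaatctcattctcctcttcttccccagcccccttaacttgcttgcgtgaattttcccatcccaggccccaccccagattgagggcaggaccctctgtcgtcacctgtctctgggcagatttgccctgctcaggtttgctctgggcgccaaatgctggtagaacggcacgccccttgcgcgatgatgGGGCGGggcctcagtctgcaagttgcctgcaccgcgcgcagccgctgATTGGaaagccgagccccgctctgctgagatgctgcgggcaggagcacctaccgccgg
Psmb10: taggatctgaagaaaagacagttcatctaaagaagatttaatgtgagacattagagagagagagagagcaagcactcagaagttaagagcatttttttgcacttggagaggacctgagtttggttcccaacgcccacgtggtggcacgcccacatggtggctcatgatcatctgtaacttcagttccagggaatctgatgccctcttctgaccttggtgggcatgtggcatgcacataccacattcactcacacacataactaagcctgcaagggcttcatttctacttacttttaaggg
Psme1: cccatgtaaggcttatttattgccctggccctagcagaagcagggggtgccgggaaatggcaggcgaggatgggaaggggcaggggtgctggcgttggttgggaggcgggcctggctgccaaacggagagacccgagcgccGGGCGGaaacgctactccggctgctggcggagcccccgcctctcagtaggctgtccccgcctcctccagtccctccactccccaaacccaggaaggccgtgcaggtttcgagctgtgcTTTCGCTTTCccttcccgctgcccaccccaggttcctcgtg
Psmb5: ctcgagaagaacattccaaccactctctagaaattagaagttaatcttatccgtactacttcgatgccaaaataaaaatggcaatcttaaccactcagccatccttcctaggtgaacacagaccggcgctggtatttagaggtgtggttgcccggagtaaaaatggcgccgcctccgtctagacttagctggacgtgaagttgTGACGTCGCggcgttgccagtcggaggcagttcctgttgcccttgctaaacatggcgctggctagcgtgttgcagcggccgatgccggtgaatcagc
Psmb6: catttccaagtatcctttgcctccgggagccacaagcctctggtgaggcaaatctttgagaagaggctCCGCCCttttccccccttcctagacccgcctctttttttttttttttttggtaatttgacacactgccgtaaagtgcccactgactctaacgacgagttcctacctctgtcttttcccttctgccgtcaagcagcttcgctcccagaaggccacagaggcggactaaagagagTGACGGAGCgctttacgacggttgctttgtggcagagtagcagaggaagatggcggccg

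Among the induced genes, the window of *Psmb8* (chr17:34197945-34198244) held the palindrome TTCNNNGAA starting at position -97 from the start site, a motif found in 8.29% of 32817 windows. The window of *Psme1* (chr14:55578244-55578543) held the interferon-regulatory factor repeat in reverse at position 10 (3.43% of windows) and a GC box. The windows of *Psme2*, the other PA28 gene, are not shown and matched only the GC box, in reverse. *Psmb9* (chr17:34187281-34187580) had a GC box at position -55 (35.6% of windows) and a CCAAT box in reverse at position -8 (37.4%), and 275 bases of its window are also in that of *Tap1*. None of the 5 motifs was matched in the window of *Psmb10* (chr8:105938343-105938642), which says only that these letters are not in those 300 bases. The constitutive *Psmb5* (chr14:54617946-54618245) and *Psmb6* (chr11:70525107-70525406) were the members with the antioxidant response core, at positions -47 and -9 (12.4% of windows), and *Psmb6* also held a GC box in reverse at position -182. These matches are letters in a window and not measured binding sites.

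In untreated NTC cells the constitutive catalytic genes and *Pomp* were the highest of the 10, and the induced catalytic genes the lowest. The order of mean levels was *Psmb7* (284 ± 5.36 TPM, SD, n = 3), *Psmb6* (273 ± 2.30), *Pomp* (264 ± 18.8), *Psmb5* (216 ± 2.43), *Psme3* (155 ± 7.12), *Psme1* (54.1 ± 1.91), *Psme2* (38.6 ± 3.51), *Psmb10* (10.3 ± 1.13), *Psmb9* (1.12 ± 0.0804) and *Psmb8*, which was listed at 0 in every untreated library. *Pomp*, from 243 to 278 TPM, overlapped with both *Psmb6* and *Psmb7*, and the remaining neighbours in this order did not overlap. With IFNγ, *Psmb7* (329 ± 13.7 TPM) and *Pomp* (325 ± 10.2) stood first and overlapped, and *Psme2* (221 ± 6.70) had passed *Psmb5* (206 ± 4.72). *Psme1* (172 ± 7.89) then overlapped with *Psme3* (159 ± 8.48), whereas *Psmb10*, *Psmb9* and *Psmb8* kept the last 3 places in all 4 conditions.

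**Figure D1:**
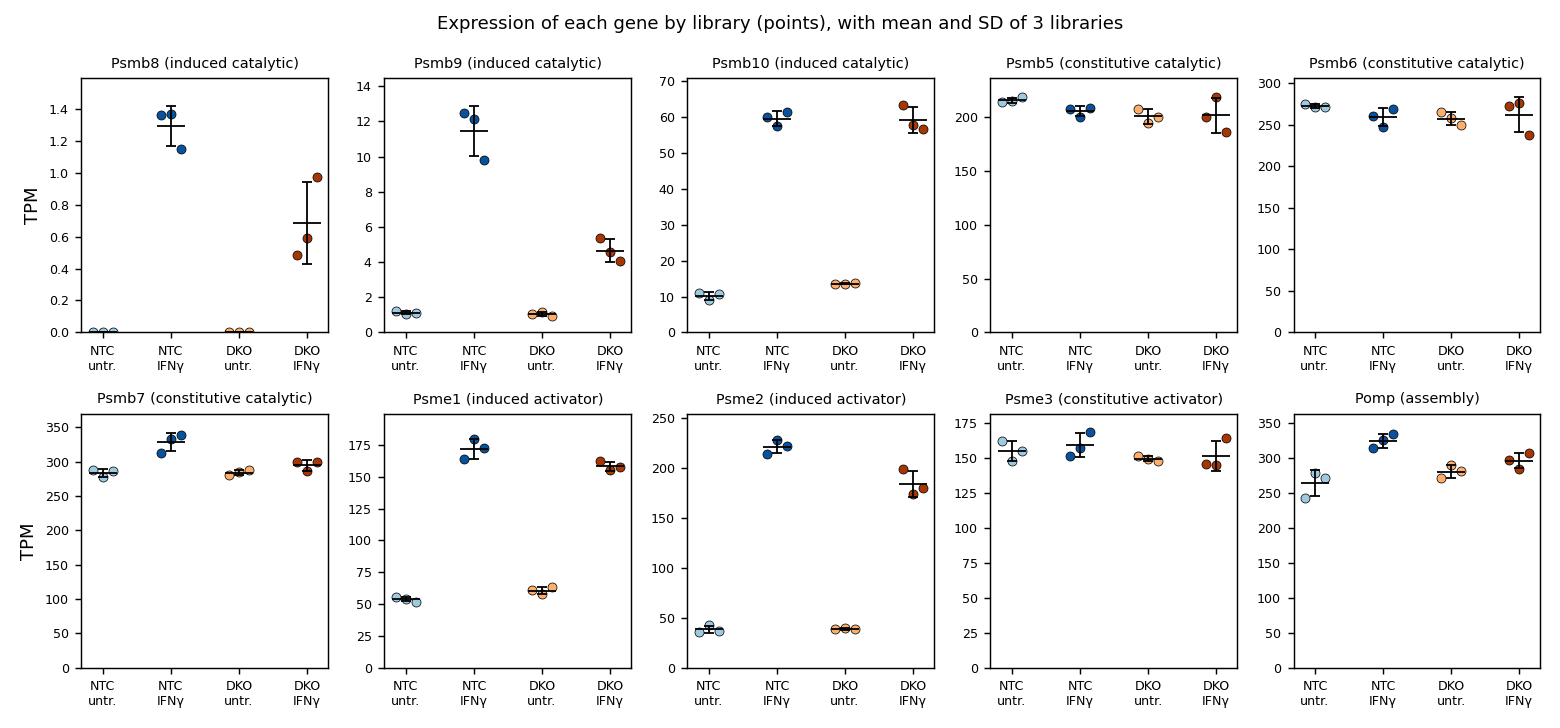
Level of each of the 10 genes in TPM (vertical axis, linear from 0, a scale of its own in each panel) in the 3 libraries of each condition; points are libraries and black marks the mean with its SD. *Psmb8*, *Psmb9*, *Psmb10*, *Psme1* and *Psme2* were higher in every treated library than in any untreated library of the same genotype. Treated DKO libraries were all below treated NTC libraries for *Psmb8*, *Psmb9*, *Psme1* and *Psme2*, and also for *Psmb7* and *Pomp*, but not for *Psmb10*. Of all tested genes, 27.2% were separated in this direction.

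*Psmb10*, the inducible trypsin-like subunit, was the most abundant of the induced catalytic genes. It measured 11, 8.96 and 10.8 TPM in untreated NTC libraries and 60.0, 57.5 and 61.5 TPM with IFNγ. In DKO cells it measured 13.5, 13.5 and 13.8 TPM without and 63.5, 57.8 and 56.7 TPM with IFNγ. The treated libraries of both genotypes thus overlapped, whereas every untreated DKO library was above every untreated NTC library. The ratio of mean TPM on treatment was 5.82 in NTC and 4.36 in DKO cells. On the log2(TPM + 1) scale of the limma fit, in which fold changes of low genes are understated, the rise of *Psmb10* was 2.43 in NTC (SE 0.0701, adjusted p = 4.11e-11) against 2.05 in DKO cells (SE 0.0701, adjusted p = 4.27e-10).

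*Psmb9*, the inducible counterpart of *Psmb6*, measured 1.2, 1.04 and 1.12 TPM in untreated NTC libraries and 12.5, 12.1 and 9.83 TPM with IFNγ. In DKO cells it measured 1.04, 1.17 and 0.931 TPM without and 5.34, 4.56 and 4.04 TPM with IFNγ. Untreated libraries of both genotypes overlapped, while each treated DKO library was lower than each treated NTC library. The ratio of mean TPM was 10.2 in NTC and 4.43 in DKO cells, and the rise of *Psmb9* was 2.55 in NTC (SE 0.111, adjusted p = 3.51e-09) against 1.46 in DKO cells (SE 0.111, adjusted p = 2.20e-06), both on the log2(TPM + 1) scale in limma. *Psmb10* was 9.13 ± 0.522 times (SD, n = 3) as high as *Psmb9* in untreated NTC cells and 5.27 ± 0.852 times with IFNγ, against 13.1 ± 1.70 and 12.9 ± 1.10 times in DKO cells. The 3 treated NTC ratios, from 4.75 to 6.26, lay below those of all other libraries.

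*Psmb8*, the inducible chymotrypsin-like subunit, was listed at 0 TPM in all untreated libraries, at 1.36, 1.37 and 1.15 TPM in treated NTC libraries and at 0.488, 0.589 and 0.975 TPM in treated DKO libraries. All treated libraries were therefore above 0, and those of the 2 genotypes did not overlap. No fold change can be given against a group listed at 0. Of the stretches of 50 bases in *Psmb8* transcripts, 11.9% are shared with other genes, mostly *Gm20496*. *Psmb8* passed the filter on low values (1 TPM in at least 3 libraries) through the treated NTC libraries alone. The limma fit also took its spread from all 12 libraries, and the untreated ones, all listed at 0, added none. Comparisons of *Psmb8* are therefore given as values without a test, and it is left out of the counts of genes below. The log2(TPM + 1) difference was 1.2 in NTC cells. In DKO cells it was 0.74, and 0.62 without DKO IFNγ replicate 3.

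The PA28 genes rose in both genotypes. *Psme1* measured 55.8, 54.3 and 52.0 TPM before and 164, 180 and 173 TPM after treatment of NTC cells, and 60.8, 57.7 and 63.4 TPM before and 162, 155 and 157 TPM after treatment of DKO cells. In both conditions the NTC and DKO libraries of *Psme1* did not overlap, with DKO higher before and lower after treatment. *Psme2* measured 35.9, 42.5 and 37.3 TPM before and 214, 228 and 222 TPM after treatment of NTC cells, and 38.8, 40.3 and 38.5 TPM before and 199, 174 and 180 TPM after treatment of DKO cells. Untreated *Psme2* overlapped between the genotypes and treated *Psme2* did not. The ratio of mean TPM on treatment was 3.18 in NTC and 2.61 in DKO cells for *Psme1*, and 5.74 and 4.70 for *Psme2*. In limma, the rise of *Psme1* was 1.65 in NTC (adjusted p = 4.11e-11) against 1.37 in DKO cells (adjusted p = 4.79e-10), and *Psme2* rose by 2.49 (adjusted p = 9.60e-12) and 2.20 (adjusted p = 6.57e-11). The ratio of *Psme1* to *Psme2* turned over with IFNγ, from 1.41 ± 0.140 to 0.777 ± 0.0122 in NTC cells and from 1.55 ± 0.109 to 0.860 ± 0.0398 in DKO cells (SD, n = 3). Of the bases of *Psme2* transcripts, read as stretches of 50, 28.3% are shared with other genes, mostly *Psme2b*, which was listed at 0.843 TPM or less.

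The constitutive counterparts moved little. In NTC cells *Psmb5* measured 214, 215 and 219 TPM without and 208, 200 and 209 TPM with IFNγ (log2 difference -0.07, SE 0.0512, adjusted p = 0.371, limma). *Psmb6* measured 275, 271 and 271 TPM without and 261, 248 and 269 TPM with IFNγ (-0.07, SE 0.0534, adjusted p = 0.381). For both genes every treated NTC library was lower than every untreated one, a separation seen in this direction for 14.7% of all tested genes, but neither passed the test. In DKO cells *Psmb5* (log2 difference 0.01, adjusted p = 0.993) and *Psmb6* (0.02, adjusted p = 0.933) overlapped between treatments. *Psme3* overlapped between treatments in both genotypes, with log2 differences of 0.04 in NTC (SE 0.0546, adjusted p = 0.665) against 0.02 in DKO cells (SE 0.0546, adjusted p = 0.961). Of the stretches of 50 bases in *Psmb5* transcripts, 54.1% are shared with other genes, mostly *Gm3375*, so its level is uncertain.

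*Psmb7*, the constitutive trypsin-like subunit, differed from *Psmb5* and *Psmb6* in NTC cells. It measured 288, 278 and 286 TPM without and 313, 333 and 340 TPM with IFNγ, with no overlap, and rose by 0.21 (SE 0.0382, adjusted p = 0.00676, limma). In DKO cells it measured 281, 284 and 288 TPM without and 299.6, 286 and 299 TPM with IFNγ, which overlapped (0.05, adjusted p = 0.725). The NTC call was lost when the trend of each library with GC content and gene length was removed (0.08, adjusted p = 0.179). *Nek6*, which overlaps *Psmb7*, did not pass the test in NTC cells (0.05, adjusted p = 0.486) and was listed at no more than 54.7 TPM. *Pomp* measured 243, 278 and 271 TPM without and 314, 326 and 334 TPM with IFNγ in NTC cells and rose by 0.30 (SE 0.0516, adjusted p = 0.00506). Its treated DKO libraries (297, 285 and 307 TPM) overlapped with the untreated ones (271, 290 and 281 TPM), with a log2 difference of 0.08 (adjusted p = 0.692).

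Counted over the 9 genes other than *Psmb8*, 6 rose in NTC cells (*Psmb9*, *Psmb10*, *Psme1*, *Psme2*, *Psmb7* and *Pomp*) and none fell, where 7.31% of all 11663 tested genes rose and 12.1% changed in either direction. These 6 were also the ones whose treated libraries all lay above the untreated ones, a separation seen for 21.8% of tested genes. In DKO cells 4 rose (*Psmb9*, *Psmb10*, *Psme1* and *Psme2*), where 0.677% of all tested genes rose and 0.78% changed, and the same 4 were the ones whose treated libraries all lay above the untreated ones, as 9.46% of tested genes did. Both counts, 6 and 4, stood whichever library was left out. *Psmb7* and *Pomp* passed in NTC and not in DKO cells. The difference itself was -0.16 for *Psmb7* (SE 0.0540, adjusted p = 0.382) and -0.22 for *Pomp* (SE 0.0730, adjusted p = 0.373), with unadjusted p of 0.0113 and 0.00906 in limma, so a difference in response was neither called nor shown to be absent.

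**Figure D2:**
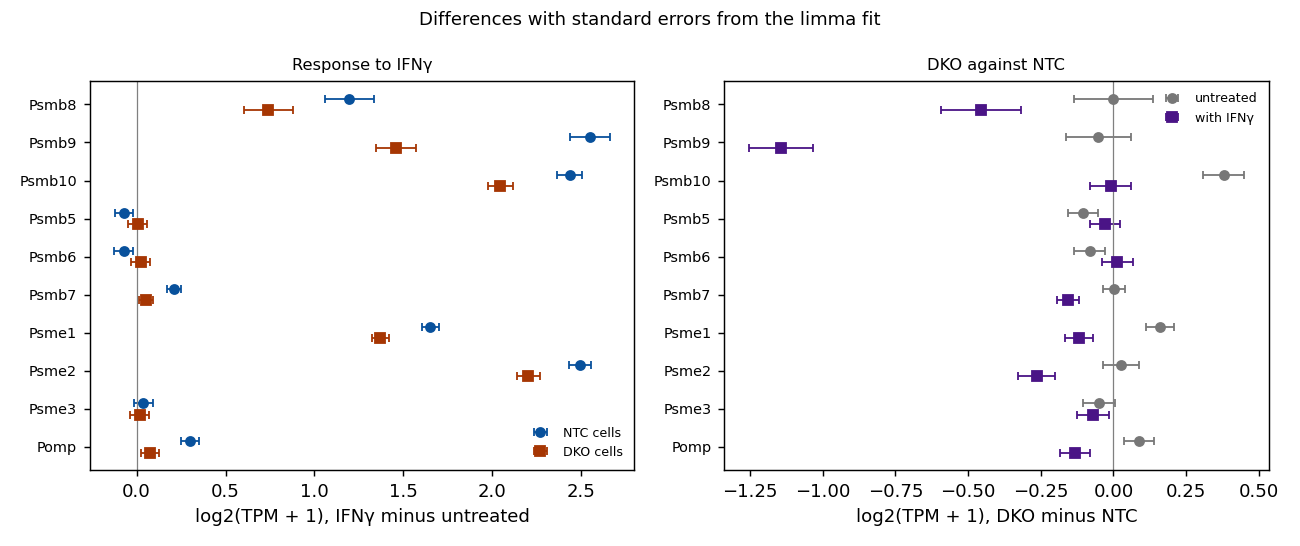
Differences in log2(TPM + 1) with standard errors from the limma fit for each gene (rows): response to IFNγ in NTC and DKO cells (left), and DKO minus NTC without and with IFNγ (right). The responses of *Psmb9* were 2.55 and 1.46 and those of *Psmb10* 2.43 and 2.05, while *Psmb5*, *Psmb6* and *Psme3* lie near 0 on the left, and no untreated library listed *Psmb8* above 0.

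The share of each induced gene in the summed TPM of its pair puts it against its counterpart within a library and does not depend on scaling between libraries. IFNγ raised the share in all 5 pairs, in every treated against every untreated library of the same genotype. Each pair other than *Psmb8* with *Psmb5* gave p = 0.005 in a two-sided exact permutation test of 6 against 6 libraries. Treatment labels were permuted within genotype, and this is the smallest p that its 400 regroupings can give. The *Psmb8* share is given without a test, because *Psmb8* passed the filter through the treated NTC libraries alone. *Psmb10* made up 3.68%, 3.12% and 3.64% of *Psmb10* plus *Psmb7* in untreated NTC libraries and 16.1%, 14.7% and 15.3% with IFNγ, and in DKO libraries 4.58%, 4.52% and 4.59% without and 17.5%, 16.8% and 15.9% with IFNγ. *Psmb7* thus remained the larger of the pair in every library. *Psmb9* made up 0.410% ± 0.0262 (SD, n = 3) of *Psmb9* plus *Psmb6* in untreated NTC cells and 4.55%, 4.66% and 3.52% with IFNγ, and 0.405% ± 0.0424 in untreated DKO cells and 1.92%, 1.62% and 1.67% with IFNγ. *Psmb8* reached 0.625% ± 0.0688 of *Psmb8* plus *Psmb5* in treated NTC cells and 0.344% ± 0.154 in treated DKO cells.

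The 3 induced catalytic genes together made up 1.45% ± 0.138 of the summed TPM of all 6 catalytic genes in untreated NTC cells and 8.36% ± 0.242 with IFNγ, and 1.93% ± 0.0378 and 7.85% ± 0.394 in DKO cells. Constitutive catalytic RNA therefore stayed in excess by TPM in all 12 libraries. The activator pairs moved further. *Psme1* rose from 25.9% ± 0.916 to 51.9% ± 1.35 of *Psme1* plus *Psme3* in NTC cells, and from 28.8% ± 1.08 to 51.1% ± 1.91 in DKO cells. *Psme2* rose from 19.9% ± 2.17 to 58.2% ± 1.22 of *Psme2* plus *Psme3* in NTC cells, and from 20.7% ± 0.452 to 54.8% ± 2.75 in DKO cells. *Psme2* thus passed *Psme3* in every treated library, and *Psme1* did so in all but DKO IFNγ replicate 3, at 48.9%. RNA shares do not give the make-up of assembled particles, which was not measured here.

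**Figure D3:**
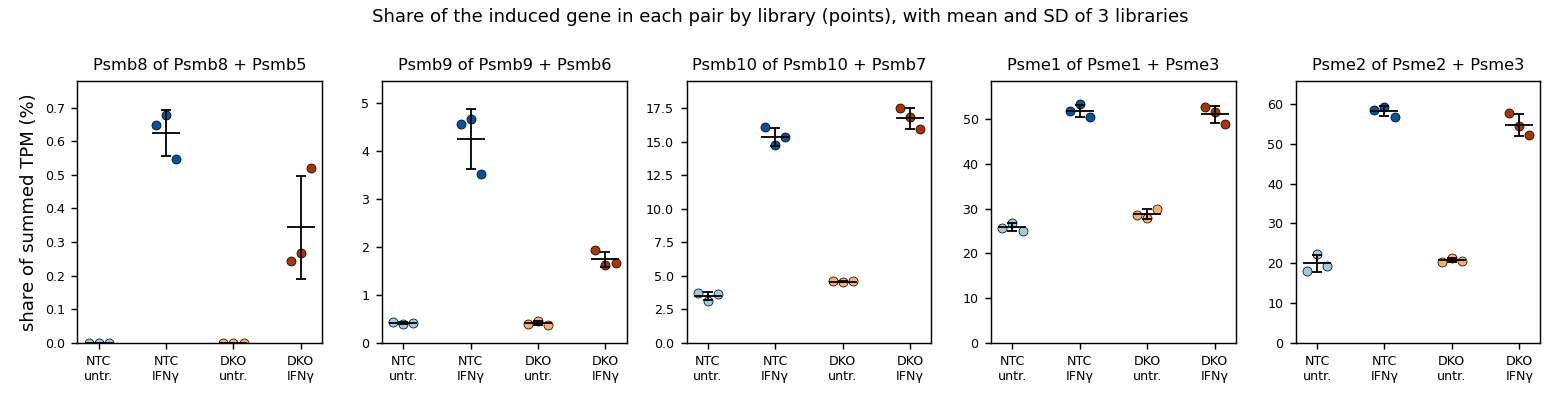
Share of the induced gene in the summed TPM of each pair in percent (vertical axis, from 0, a scale of its own in each panel) by condition; points are libraries and black marks the mean with its SD. Treated NTC and DKO libraries are apart for *Psmb8* (0.547% to 0.678% against 0.243% to 0.521%) and *Psmb9* (3.52% to 4.66% against 1.62% to 1.92%) and overlap for *Psmb10*, *Psme1* and *Psme2*.

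Between the genotypes, the pairs went different ways. For *Psmb9* with *Psmb6* the DKO minus NTC difference in share was -2.51 percentage points with IFNγ and -0.004 without, on average -1.26 points (p = 0.045, two-sided exact permutation test within treatment). That p passed 0.05 in 8 of the 12 analyses with a library left out. It did not without NTC untreated replicate 1 (0.06) or 3 (0.05) or DKO untreated replicate 1 (0.055) or 3 (0.07). The difference was from -1.44 to -1.15 points throughout. Whichever treated library was left out, the p stayed at 0.045. With untreated shares near equal, it came below 0.1 only through regroupings of the untreated libraries. The test therefore could not decide whether the treated share differed. For *Psmb10* with *Psmb7* the difference was the other way, 1.08 points without and 1.37 points with IFNγ, on average 1.23 points (exact p = 0.01, and between 0.005 and 0.015 with any library left out). For *Psmb8* with *Psmb5* the average was -0.141 points, with every treated DKO share below every treated NTC share. These are values without a test, as above. The *Psmb8* share was 0 in every untreated library, so regrouping mattered only among the treated ones, 3 against 3. The exact permutation test then cannot give less than p = 0.1, so it could not decide whether this share differed. The averages for *Psme1* with *Psme3* (1.03 points, exact p = 0.305) and *Psme2* with *Psme3* (-1.27 points, exact p = 0.325) did not pass 0.05. Both averages join opposite signs: 2.93 points without and -0.872 with IFNγ for *Psme1*, and 0.791 and -3.34 for *Psme2*. Untreated *Psme1* shares were apart (25.1% to 26.9% in NTC, 27.8% to 30.0% in DKO libraries). The exact p-values given are raw and belong to a family of 10 tests run on 5 pairs. An exact test of 3 libraries against 3 within one treatment cannot give less than p = 0.1.

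Gene by gene, *Psmb9* was the member whose response to IFNγ differed between the genotypes, by -1.09 on the log2(TPM + 1) scale (SE 0.157, adjusted p = 0.0256, limma), where 0.0343% of tested genes passed this test (4 genes, against 1340 at an unadjusted p under 0.05). The size of the difference was stable, from -1.19 to -1.01 over all alternatives, but the call was not: leaving out any library other than NTC IFNγ replicate 3 gave adjusted p from 0.0553 to 0.110, and a pseudocount of 0.1 gave 0.0786. *Psmb10*, *Psme1* and *Psme2* also had smaller fitted responses in DKO than in NTC cells, none past the threshold: *Psmb10* -0.39 (SE 0.0991, adjusted p = 0.364), *Psme1* -0.28 (SE 0.0679, adjusted p = 0.364) and *Psme2* -0.29 (SE 0.0891, adjusted p = 0.364). For *Psmb5* (0.07, SE 0.0724), *Psmb6* (0.10, SE 0.0756) and *Psme3* (-0.02, SE 0.0772) the fitted difference was within 2 standard errors of 0. The responses share their untreated libraries with the comparisons of genotype that follow.

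In untreated cells *Psmb10* was higher in DKO than in NTC, by 0.38 (SE 0.0701, adjusted p = 0.000923), or 1.33 times by mean TPM, and *Psme1* was higher by 0.16 (SE 0.0480, adjusted p = 0.0178). These 2 of the 9 genes passed where 36.4% of all tested genes did and 17.0% of all tested genes were higher in DKO cells, and both had every DKO library above every NTC library, as 24.8% of tested genes had. The *Psme1* call was lost without NTC untreated replicate 3 (0.13, adjusted p = 0.0779) or DKO untreated replicate 3 (0.13, adjusted p = 0.0839). *Psmb5* was lower in every untreated DKO library, as was *Psmb6*, a separation seen for 26.8% of tested genes. The difference was -0.10 for *Psmb5* (adjusted p = 0.129) and -0.08 for *Psmb6* (adjusted p = 0.254), and that of *Psmb5* passed 0.05 without DKO IFNγ replicate 2 (adjusted p = 0.0476), with only the 6 libraries of the comparison (0.0408) and after the GC content and length trend was removed (0.0229). *Psmb9* differed by -0.05 (SE 0.111, adjusted p = 0.754) and *Psme2* by 0.03 (SE 0.0630, adjusted p = 0.781), and both overlapped.

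With IFNγ, *Psmb9* in DKO cells stood at 40.5% of its NTC level (log2 difference -1.14, SE 0.111, adjusted p = 4.33e-06) and stayed below it past the threshold in all 19 alternatives. *Psme2* was lower by 0.26 on the log2 scale (SE 0.0630, adjusted p = 0.00433), also in all 19. *Psmb8* in DKO cells stood at 52.9% of its NTC level by mean TPM, given as a value without a test for the reason above. *Psmb7* was lower by 0.16 (adjusted p = 0.00514), but not past the threshold when libraries were scaled to the same total (-0.07, adjusted p = 0.121) or after the GC content and length trend was removed (-0.002, adjusted p = 0.964). *Psmb10* did not differ past its spread (-0.01, SE 0.0701, adjusted p = 0.926). *Psme1* (-0.12, adjusted p = 0.0591) and *Pomp* (-0.13, adjusted p = 0.0519) lay just outside the threshold, with every DKO library below every NTC library, as in 27.2% of tested genes. *Psme1* passed it without NTC IFNγ replicate 1 (adjusted p = 0.0313) and with that trend removed (-0.20, adjusted p = 0.00911), and *Pomp* passed without NTC untreated replicate 1 (0.0207) or 2 (0.0454), NTC IFNγ replicate 1 (0.0473) or DKO IFNγ replicate 3 (0.0372). In all, 3 of the 9 genes passed, all lower in DKO cells, where 43.3% of all tested genes passed and 23.9% were lower. The listed genes of a library summed to between 805782 and 827191 TPM in DKO and to between 844185 and 874612 TPM in NTC libraries, and the melanocyte list summed to between 11124 and 12414 TPM in DKO against 16647 to 18643 TPM in NTC libraries, with 7 of 7 of its genes lower in untreated and 6 of 7 in treated DKO cells. Scaling the libraries to the same total took *Psmb7* out of the calls, as above, and left *Psmb9* and *Psme2* past the threshold. The part of the melanocyte shift in the values above was not tested, and in bulk RNA fewer cells with a transcript and less RNA per cell cannot be told apart.

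The remaining proteasome genes moved by smaller steps. Of the 13 listed other subunits of the 20S barrel, 11 were tested, and 7 of them rose in NTC cells and none fell, beside 7.31% of all tested genes that rose, with a median log2 difference of 0.18 against 0.02 over all tested genes. *Psma2* (0.27, adjusted p = 0.0160), *Psma4* (0.27, adjusted p = 0.0139) and *Psma3* (0.25, adjusted p = 0.0167), subunits of the outer rings, had the largest of these values, and passed in 14, 15 and 16 of 19 alternatives. After removal of each library's trend with GC content and gene length, 3 of 11 rose (median 0.12). None passed in DKO cells (0 of 11, median 0.06), where 0.78% of all tested genes did, and none differed in response between the genotypes. With IFNγ, 6 of 11 were lower in DKO than in NTC cells, beside 23.9% of all tested genes, and 3 of 11 were lower and 2 higher both when libraries were scaled to the same total and after removal of that trend.

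Of the 19S cap, which unfolds substrates, 19 subunits were tested. In NTC cells 6 rose, where 7.31% of all tested genes rose and 12.1% changed in either direction. Among the 6 were *Psmc6* (0.22, adjusted p = 0.0400), *Psmd14* (0.21, adjusted p = 0.0410) and *Psmc2* (0.17, adjusted p = 0.0261). The ubiquitin receptor *Adrm1* fell (-0.25, adjusted p = 0.0283). The median was 0.11. *Psmc6*, *Psmd14*, *Psmc2* and *Adrm1* passed in 8, 7, 12 and 13 of 19 alternatives, in that order. Only 1 rose and 1 fell with libraries scaled to the same total, and none passed in DKO cells (0 of 19), where 0.78% of all tested genes did. Of 9 assembly chaperones and other regulators, 2 rose in NTC cells and none in DKO cells, beside 7.31% and 0.677% of all tested genes. They were *Psme4*, another activator cap (0.30, adjusted p = 0.0101), and *Psmd10*, a chaperone of the 19S base (0.21, adjusted p = 0.0498). *Psme4* passed in all 19 alternatives and *Psmd10* in 5. *Nfe2l2*, which encodes a factor that drives constitutive proteasome genes under oxidative stress, rose in NTC cells (0.21, adjusted p = 0.0230), the one of 6 tested factors of that list to do so, a call lost with the trend removed (0.13, adjusted p = 0.0773) and without any 1 of 5 NTC libraries, all but NTC IFNγ replicate 1 (adjusted p up to 0.0927). In DKO cells 3 of the 6 were lower than in NTC cells both without and with IFNγ. Without IFNγ, 36.4% of all tested genes differed in either direction, 17.0% of all being higher in DKO cells. With IFNγ, 43.3% differed and 23.9% of all were lower. Of the 6, 2 were lower with IFNγ when libraries were scaled to the same total or the trend was removed. The 3 are named here after their values were seen: *Nfe2l1*, a factor that raises proteasome genes when the proteasome is inhibited (-0.57, adjusted p = 1.28e-06, and -0.48, adjusted p = 5.04e-06), *Nfyb*, a subunit of the factor that binds CCAAT boxes (-0.20 and -0.26), and *Ngly1*, the enzyme that removes sugars from the NFE2L1 protein (-0.25 and -0.23).

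**Figure D4:**
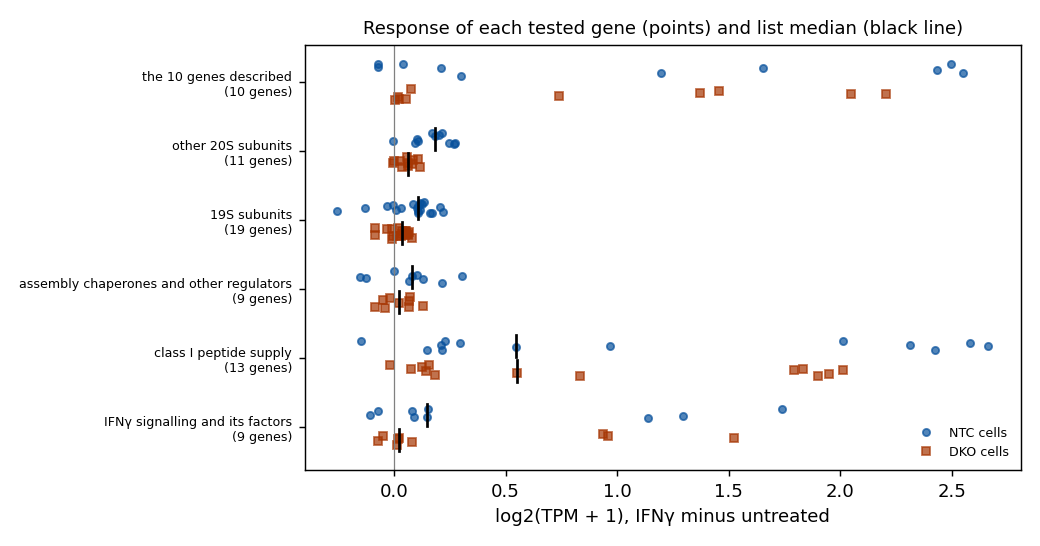
Response to IFNγ in log2(TPM + 1) (horizontal axis) of each tested gene (points) in NTC and DKO cells, for the 10 genes described and 5 lists of related genes; black lines mark list medians. The other 20S subunits spread from -0.003 to 0.27 in NTC and from -0.006 to 0.12 in DKO cells, far below *Psmb9*, *Psmb10*, *Psme1* and *Psme2*.

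Several genes that act after the proteasome had responses of a size like those of the induced subunits. Of 13 genes for class I peptide supply, 11 rose in NTC and 6 in DKO cells, with medians of 0.55 in both. Over all tested genes, 7.31% rose in NTC and 0.677% in DKO cells. *Tap1*, which pumps peptides into the endoplasmic reticulum, measured 0.746 ± 0.0563 TPM in untreated and 10.1 ± 0.841 TPM in treated NTC cells, and 1.15 ± 0.216 and 6.44 ± 0.601 TPM in DKO cells (SD, n = 3). Its response was 2.66 in NTC and 1.79 in DKO cells, a difference of -0.87 that did not pass (adjusted p = 0.0709). *B2m*, the light chain of MHC class I, rose by 2.58 in NTC and 1.95 in DKO cells and was the gene of that list whose response differed (-0.63, SE 0.0821, adjusted p = 0.0256), a call kept in 4 of the 12 analyses with a library left out, without NTC IFNγ replicate 1, DKO untreated replicate 1 or DKO IFNγ replicate 2 or 3. Without any other library the adjusted p was up to 0.102, with the difference from -0.68 to -0.56 over all 12. *Erap1*, which trims peptides, rose by 2.42 and 1.83 (difference -0.59, adjusted p = 0.364). Among the tested genes of IFNγ signalling, the transcription factor genes *Irf9* (1.29 in NTC and 0.96 in DKO cells) and *Irf1* (1.14 and 0.93) rose in both genotypes, and neither differed in response past the threshold (adjusted p = 0.377 and 0.451).

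The genes with the most similar pattern to *Psmb9* over the 12 libraries, by Pearson correlation of log2(TPM + 1) over all tested genes, were *B2m* (r = 0.984), *H2-D1* (0.978), *Psmb8* (0.971), *Itm2b* (0.968) and *C4b* (0.967). *Psmb8*, *H2-D1* and *C4b* are on chromosome 17, as is *Psmb9*. For *Psmb10* they were *Psme1* (r = 0.994), *Ifitm3* (0.993), *Tapbp* (0.992), *Gbp2* (0.992) and *Gbp3* (0.992), of which only *Tapbp* is on chromosome 17. *Psmb9* and *Psmb10* correlated with each other at r = 0.915 and *Psme1* and *Psme2* at r = 0.995. These correlations describe 12 libraries of 4 conditions, which share the treatment, and carry no test.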

How the data were processed

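RNA-seq values of 12 libraries of B16-F10 Cas9 cells were used, grouped by the genotype and treatment in the labels. The labels and methods of the study give poly(A)-selected, unstranded libraries, RSEM 1.2.4 modified to call Bowtie, TopHat 20.8b and mm10 (GRCm38). The authors deposited TPM, although the name of the table speaks of counts; they are not whole numbers, and a scaling between libraries is not given in the sources used here. TPM keep no depth, so no count test was run.

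A gene was tested if 3 or more libraries reached 1 TPM (11663 of 23022). The fit was made on log2(TPM + 1) in limma 3.58.1 (R 4.3.3), with 1 mean per condition and a prior variance following mean expression. P-values were adjusted over all tested genes by the Benjamini-Hochberg method in each of 5 comparisons, with a threshold of 0.05. The fit did not pair replicates by number. Shares of TPM in 5 pairs were tested by exact permutation of libraries (scipy 1.17.1). Python 3.11.15 was used with pandas 2.3.3, numpy 2.4.6 and, for figures, matplotlib 3.10.9. Positions, GC content and length came from GENCODE M21 (11563 of the tested genes), and promoter windows from RefSeq. Shared transcript sequence was counted in stretches of 50 bases. The fit and the permutation test were tested on simulated data.

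The genes described and the lists were chosen with earlier results of these data known. Named genes are the 10 genes, *Mbnl1*, *Mbnl2*, up to 3 genes per list and direction with the largest NTC response past the threshold, any list gene past the threshold for the difference in response, and the 5 genes most like *Psmb9* and *Psmb10*. A gene that this rule names is not reported here. *Nek6*, *Psme2b*, *Gm3375* and *Gm20496* are named for sharing sequence with a member. Alternatives tried were 2 other scalings, removal of the trend of each library with GC content and gene length, a fit on only the 6 libraries of a comparison, the replicate number as a block, a pseudocount of 0.1, testing without the filter, and leaving out 1 library at a time.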

Additional observations from a re-analysis of the deposited data

Results flagged for a closer look

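The response of *Psmb9* to IFNγ was smaller in DKO than in NTC cells, by -1.09 on the log2(TPM + 1) scale in a limma test of the difference itself (adjusted p = 0.0256). Every treated library was above every untreated library of the same genotype, as for 21.8% of tested genes in NTC and 9.46% in DKO cells. The ratio of mean TPM was 10.2 in NTC and 4.43 in DKO cells. The untreated levels of 1.12 and 1.05 TPM lie close to the pseudocount of 1, so the fitted values understate both ratios.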

How the results depend on the processing

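Of 921 values of the 10 genes under 19 alternatives, 884 kept their side of the threshold, 26 fell short of it and 11 passed it newly. None (0) turned direction with a call. Values near 0 that were not called could change sign, as did the NTC response of *Psmb5* (from -0.10 to 0.02 over the alternatives). The responses of *Psmb9*, *Psmb10*, *Psme1* and *Psme2* in both genotypes and of *Pomp* in NTC cells passed under all of them. The number of genes that changed with IFNγ in NTC cells, 1411, was 897 with no filter on low values, 519 once the trend of each library with GC content and length was removed and 319 to 2020 with a library left out, lowest without NTC IFNγ replicate 3; the cause was not tested. For the difference in response, 4 genes became 10 with no filter and 0 to 7 with a library left out, highest without NTC IFNγ replicate 1. *Psmb9* was the 1 of the 9 genes called there, and the count was 0 with a pseudocount of 0.1 (-1.19, adjusted p = 0.0786) and 0 to 1 with a library left out. In untreated cells, 2 of the 9 genes differed between genotypes, and 1 to 3 did with a library left out; with IFNγ, 3 did, and 3 to 5 with a library left out. The share of *Psmb9* in its pair with *Psmb6* differed by -1.44 to -1.15 points between genotypes with a library left out. After removal of the trend with GC content and gene length, the treated DKO minus NTC differences turned from -0.12 to 0.010 for *Psmc2* and from -0.05 to 0.11 for *Psmd14*. Scaling to the same total moved the median of all genes in that comparison to 0.07, and the other scaling to 0.005.

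Same-numbered libraries did not deviate together (correlations from -0.179 to 0.182, 4 of 18 over 0.1), so no pairing by number was seen. The labels do not say whether same-numbered libraries were handled together. With the replicate block, 2 genes passed for the difference in response, *Psmb9* among them (adjusted p = 0.0407). The block also moved *Pomp* with IFNγ into the calls (-0.13, adjusted p = 0.0388, limma). It moved the exact p of the genotype difference in the *Psmb9* share (-1.26 points) to 0.125, where the smallest it can give is 0.0312. TPM limit what can be said of low genes: the counts behind *Psmb8* and *Psmb9* are unknown.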
